A study of Mus musculus with 2 samples.

Results

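The 7SK RNA and the elongation machinery it holds in check were examined through 9 genes, taken as a fixed list of symbols out of the 55536 annotated genes in the tables. They were Rn7sk, the 7SK RNA itself, and 8 protein-coding genes: Mepce, Larp7, Hexim1, Cdk9, Ccnt1, Ccnt2, Brd2 and Aff4. All 9 symbols matched exactly 1 gene each. The cells were macrophages, the phagocytes of tissue, which had been raised from the bone marrow of C57BL/6J mice. All had received lipid A, the membrane anchor of bacterial lipopolysaccharide and the ligand of the receptor TLR4, at 100 ng/ml for 12 h, had then been kept without it for 12 h, and had received 100 ng/ml again for 25 min. RNA of the nucleoplasm, which another label field calls nuclear, was depleted of ribosomal RNA and sequenced as 2 libraries of this 1 group. Age and sex were not recorded in the labels. Untreated cells, cells stimulated once and cytoplasmic RNA were not analysed here, so no value below is a response to lipid A. A size range of 250 to 400 is recorded for both libraries, and its effect on the short 7SK RNA was not tested. The starting amount of RNA was 500 ng for replicate 1 and 1 µg for replicate 2, and replicate and starting amount cannot be told apart. Since both carry the same donor entry, their spread may be technical, and with 2 libraries of 1 group no test between groups was possible.

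RNA polymerase II pauses shortly after it starts on many genes, and the kinase P-TEFb releases it by phosphorylating the polymerase and the pausing factors. P-TEFb is Cdk9 bound to cyclin T1 or cyclin T2. A large part of it is stored in an inactive particle, in which the 7SK RNA carries HEXIM1, the protein that inhibits the kinase, while MEPCE caps the 5′ end of the RNA and LARP7 protects its 3′ end. Active P-TEFb is brought to genes by bromodomain proteins and by the super elongation complex, whose scaffold is AFF4. In macrophages, this release step is known as a point of control for inflammatory genes.

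Rn7sk is a single-exon gene of 331 bases at chr9:78175303-78175633 (GRCm38, minus strand), annotated as misc_RNA. Both ends of its sequence are shown. The 5′ end holds the part that HEXIM1 is known to bind, and the 3′ end separates it from near-identical copies when reads are counted. In the first 110 bases (chr9:78175524-78175633), written 5′ to 3′ as DNA from GENCODE M21 with each GATC in capitals, the gene reads as follows.
Rn7sk 5′ end: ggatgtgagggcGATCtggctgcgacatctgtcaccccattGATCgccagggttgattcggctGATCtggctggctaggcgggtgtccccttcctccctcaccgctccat
GATC, the only motif searched and its own reverse complement on the other strand, begins at positions 13, 42 and 64, counted from the 5′ end. GAUC repeats in the 5′ hairpin are the known contact of HEXIM1 in human 7SK. At least 3 GATC in the first 110 bases were found in 0.79% of the 4689 annotated transcripts of 300 to 360 bases. That set includes Rn7sk itself and copies of it. A match in letters is a description and not a binding site.

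The annotation holds 35 further misc_RNA genes that resemble 7SK over at least 150 aligned bases at 80% identity or more, and 10 of them carry as many GATC in their first 110 bases. Gm24447 (chr15:93234363-93234700, plus strand) is identical to Rn7sk over its first 241 bases and leaves it after that. Gm26315 (chr2:7076094-7076414, minus strand) matches at 99.6% over 238 aligned bases. The 3′ ends are shown with the last 20 shared bases in lower case and the part from which the copies differ in capitals.
Rn7sk 3′ end: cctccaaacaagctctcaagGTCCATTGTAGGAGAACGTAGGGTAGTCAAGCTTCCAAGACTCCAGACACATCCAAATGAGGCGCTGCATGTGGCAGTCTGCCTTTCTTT
Gm24447 3′ end: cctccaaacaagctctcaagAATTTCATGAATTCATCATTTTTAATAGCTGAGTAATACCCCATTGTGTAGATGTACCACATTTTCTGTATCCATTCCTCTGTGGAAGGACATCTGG
Gm26315 3′ end: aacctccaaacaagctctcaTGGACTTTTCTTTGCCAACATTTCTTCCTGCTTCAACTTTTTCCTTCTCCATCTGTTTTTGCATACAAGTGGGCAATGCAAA
Reads from the shared 5′ part cannot be assigned by letters alone, so each copy's value is uncertain. In the gene tables the 35 copies together were given 32.8 expected counts in replicate 1 and 71.6 in replicate 2. That was 0.0065% and 0.0108% of the counts of the whole family, and Rn7sk held the rest. Gm24447 was given 0 and 1.75 of these counts. In the second set of tables, made directly from the reads, the copies were given 1974 and 992 estimated counts, or 0.287% and 0.148% of the family, of which Gm24447 held 84.7 and 671. Both quantifications thus placed at least 99.7% of the family on Rn7sk.

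Each library was quantified by the authors in 2 ways, called here by the layout of their columns. The RSEM-layout tables were made from alignments to the transcriptome, and the kallisto-layout tables from the reads themselves. TPM divides a count by the effective length of the RNA and scales the sum over all entries of a table to a fixed total, so it compares genes per length, and it shifts when any abundant short entry shifts.

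For 7SK the 2 quantifications differed far less in counts than in TPM. In the RSEM-layout tables Rn7sk had 501484 expected counts in replicate 1 and 663861 in replicate 2. These were 2.48% of the counts of replicate 1 (95% Wilson interval 2.476 to 2.490%) and 3.39% of those of replicate 2 (3.381 to 3.397%), and such intervals cover counting error only. In the kallisto-layout tables it had 687115 and 669528 estimated counts, or 1.98% and 2.39%. By counts Rn7sk had rank 3 in replicate 1 and rank 2 in replicate 2 in both quantifications.

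By TPM the same RNA took 22.2% of replicate 1 and 20.6% of replicate 2 in the RSEM-layout tables, where it had rank 1, against 8.94% and 2.48% in the kallisto-layout tables, where it had ranks 3 and 6. Its RSEM-layout TPM was 221645 in replicate 1 and 206396 in replicate 2, and its kallisto-layout TPM was 89412 and 24798. The log2 ratio of RSEM-layout over kallisto-layout TPM was therefore 1.31 in replicate 1 and 3.06 in replicate 2 (mean 2.18 ± 1.24, SD, n = 2). On shares of counts the same ratio was 0.33 and 0.50, and on TPM relative to protein-coding genes, a scaling chosen after seeing the data, it was 0.84 and 0.66. The direction was the same under these 3 measures and the size was not. On the counts themselves, without scaling, the ratio was negative, at -0.45 and -0.01.

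The effective length given to the 331 bases of Rn7sk was 114 and 148 bases in replicates 1 and 2 of the RSEM-layout tables. In the kallisto-layout tables it was 154 and 161 bases. GENCODE transcripts shorter than 100 bases held 0% of TPM in both RSEM-layout tables, against 20.7% in replicate 1 and 75.8% in replicate 2 of the kallisto-layout tables. Entries outside GENCODE were not included in these shares. The part of these lengths and of these shares in the TPM ratio was not tested. In replicate 1 the entries above Rn7sk were longer than 100 bases. They were the processed pseudogenes Gm12896 and Gm12895 of 226 bases, with 109803 kallisto-layout TPM each and 0 RSEM-layout counts. In replicate 2 the entries Gm23935, Gm24270 and Gm24245, annotated as miRNA and 57 bases long, each had 251057 kallisto-layout TPM and no RSEM-layout counts.

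**Figure D1:**
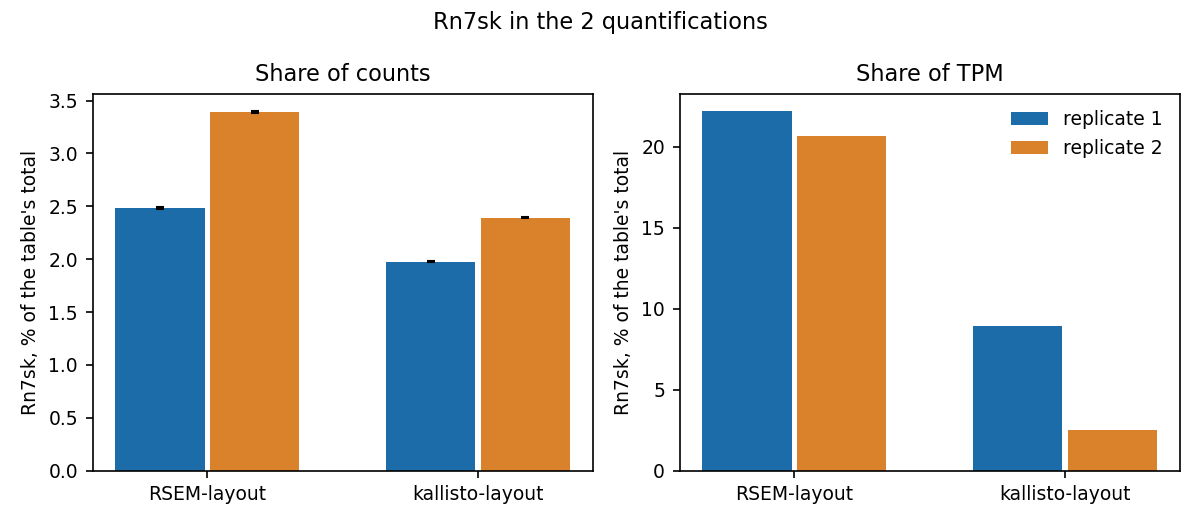
Rn7sk as a share of the total counts (left, %) and of the total TPM (right, %) in the RSEM-layout and kallisto-layout tables, with a bar for each replicate and 95% Wilson intervals on the count shares. The count shares lie between 1.98% and 3.39%, while the TPM shares run from 2.48% to 22.2%.

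The protein-coding genes shifted between the quantifications as most genes did. In replicate 1, 1 of the 9 genes, Rn7sk, was over 2-fold higher in the RSEM-layout table, beside 3.02% of the 14553 genes with at least 10 expected counts in both libraries and a TPM above 0 in both tables. In replicate 2 all 9 were, beside 93.5% of the same genes. Across these genes the median log2 ratio was 0.38 in replicate 1 and 2.36 in replicate 2. Aff4 had the lowest ratio of the 9 genes in both libraries, at -0.84 in replicate 1, where its RSEM-layout TPM was below its kallisto-layout TPM, and at 1.61 in replicate 2.

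All levels that follow are RSEM-layout TPM unless another table is named. Each of the 9 genes had at least 1 TPM in both libraries, beside 22.4% of all genes and 44.9% of protein-coding genes. The 8 protein-coding genes had medians of 30.5 and 22.2 TPM in replicates 1 and 2, against 9.35 and 7.82 TPM for the 11383 protein-coding genes with at least 10 expected counts in both. On the log2(TPM + 1) scale, the difference of these medians was 1.60 and 1.39 (mean 1.49 ± 0.15, SD, n = 2). The group was chosen by name and is small, so this places it among expressed genes and says no more.

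Larp7 and Mepce, whose proteins protect and cap the 7SK RNA, had the lowest RNA levels of the set. Protein was not analysed here. Larp7 (chr3:127536714-127553349), the La-related protein on the 3′ end of 7SK, had 3.66 and 3.64 TPM in replicates 1 and 2. It rested on 133 expected counts in each library, with an exact 95% Poisson interval of 111 to 158 counts. Its level lay above 28.7% of the detected protein-coding genes, and it was the only one of the 8 below their median. Mepce (chr5:137781906-137787655), the methyl-phosphate capping enzyme of 7SK, had 13.3 and 11.0 TPM, with 676 and 639 counts. Larp7 was lower than Mepce in both libraries, by 1.62 in replicate 1 and 1.37 in replicate 2 on the log2(TPM + 1) scale. Rn7sk had 60559 times the TPM of Larp7 in replicate 1 and 56702 times in replicate 2. In the kallisto-layout tables the ratios were 27260 and 37872. With the annotated length in place of the effective length, Rn7sk had 155782 and 184392 TPM and Larp7 had 6.66 and 6.47. The size of these ratios thus depends on the length used for the short RNA.

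Hexim1 (chr11:103116231-103119725), the P-TEFb inhibitor, is a gene with 1 exon and 1 annotated transcript, so none of its reads can be shared among isoforms. It had 24.5 and 17.9 TPM in replicates 1 and 2. Hexim1 lay below Cdk9 by 1.34 and 1.86 on the log2(TPM + 1) scale (mean difference -1.60 ± 0.36, SD, n = 2). Its paralog Hexim2 had 1.85 and 1.79 TPM.

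Of the kinase and its cyclins, Cdk9 and Ccnt2 stood close together and Ccnt1 was lower. Cdk9 (chr2:32705784-32713076), the catalytic subunit, had 63.6 and 67.3 TPM in replicates 1 and 2. Ccnt2 (chr1:127774164-127808061), cyclin T2, had 67.2 and 51.6 TPM, so that the values of Cdk9 and Ccnt2 overlapped and their order reversed between the libraries. Ccnt1 (chr15:98538689-98570923), cyclin T1, had 34.2 and 20.3 TPM, below Ccnt2 in both. The difference of Ccnt1 minus Ccnt2 was -0.95 and -1.31 on the log2(TPM + 1) scale (mean -1.13 ± 0.25, SD, n = 2). This difference was smaller when only transcripts annotated as protein_coding were summed, as described with the isoforms.

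The RNAs of the factors that bring active P-TEFb to genes spanned a wide range of levels. Brd2 (chr17:34112023-34122634), a bromodomain protein of the BET family that binds acetylated histones, had 179 and 164 TPM in replicates 1 and 2, above 98.0% of detected protein-coding genes. It was the highest of the 8 in both libraries and in both quantifications. Aff4 (chr11:53350833-53421830) had 26.9 and 24.1 TPM. The values of Aff4 overlapped those of Ccnt1 and of Hexim1 across the libraries. Within each library Hexim1 was the lowest of these 3, while Ccnt1 and Aff4 changed places.

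The order by mean TPM was thus Rn7sk, Brd2, Cdk9, Ccnt2, Ccnt1, Aff4, Hexim1, Mepce and Larp7. Neighbours in this order overlapped between Cdk9 and Ccnt2, Ccnt1 and Aff4, and Aff4 and Hexim1, and were separate elsewhere. Rn7sk and Brd2 at the top and Hexim1, Mepce and Larp7 at the bottom kept their places in both libraries and in the kallisto-layout tables. Aff4 had rank 3 of the 9 in replicate 1 of the kallisto-layout tables, above Ccnt2, Cdk9 and Ccnt1. In those tables Larp7 had 3.28 and 0.655 TPM in replicates 1 and 2, and was the only one of the 9 genes below 1 TPM in either.

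**Figure D2:**
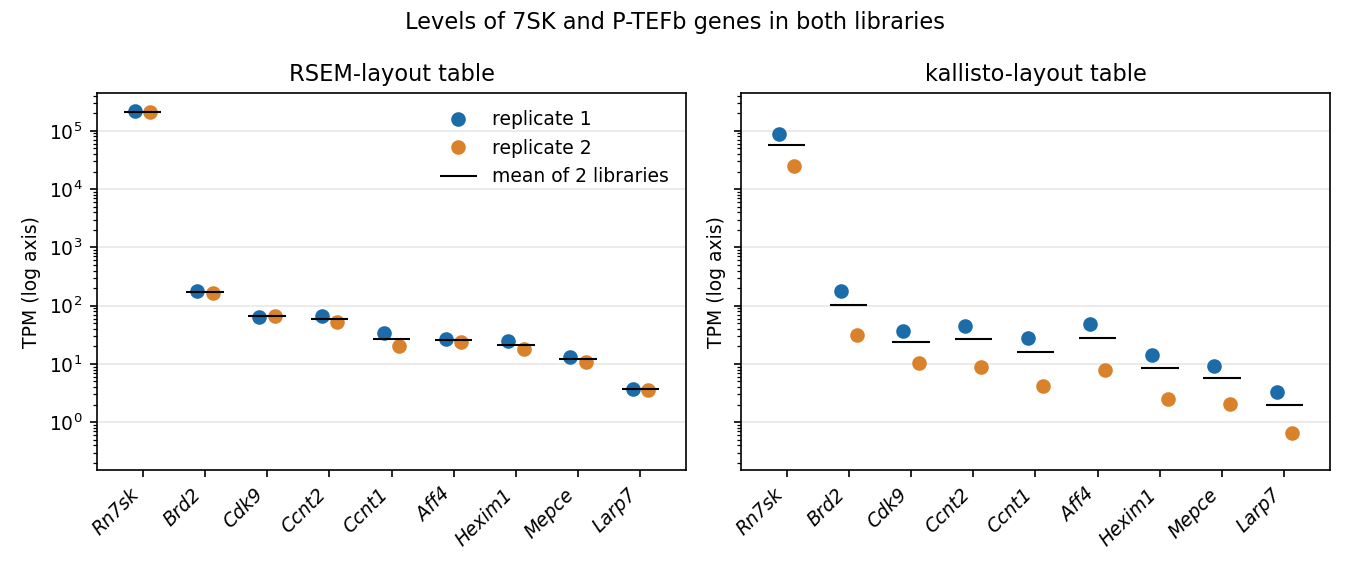
TPM on a log axis of the 9 genes in the RSEM-layout tables (left) and the kallisto-layout tables (right), with a point for each replicate and a line at the mean of the 2 libraries. Rn7sk lies at 206396 TPM or more on the left, the 8 protein-coding genes lie between 3.64 and 179 TPM there, and every gene is lower in replicate 2 on the right.

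Between the replicates none of the 9 genes differed by more than 2-fold in TPM, beside 11.2% of the 14595 detected genes with a TPM above 0 in both, nor in TMM-normalised CPM, beside 7.82% of 14596. The median detected gene had a log2 ratio of replicate 1 over replicate 2 of 0.28 in TPM and of -0.0043 after TMM normalisation of the counts. In TPM and relative to that shift, Ccnt1 was the highest of the 9 at 0.48 and Cdk9 the lowest at -0.36. In TMM-normalised CPM the lowest was Rn7sk. Unadjusted, Ccnt1 was higher in replicate 1 by 0.76 in TPM and by 0.36 in TMM-normalised CPM. Cdk9 was lower in replicate 1 by either measure, at -0.08 and -0.46.

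The direction for 7SK depended on the scale. Its log2 ratio of replicate 1 over replicate 2 was 0.10 in TPM, -0.55 in TMM-normalised CPM and -0.24 when TPM was recomputed with the annotated length in place of the effective length. Brd2 also changed sign, with 0.12 in TPM and -0.46 in TMM-normalised CPM, and so did Larp7, Mepce and Aff4 by smaller amounts. In TPM, 8 of the 9 genes were higher in replicate 1, as was the median detected gene, at 0.28. In TMM-normalised CPM, where that median was -0.0043, 3 were, namely Hexim1, Ccnt1 and Ccnt2. In TPM, 30.1% of detected genes had a lower ratio than Larp7, whose own ratio was 0.0079. The exact share of all detected genes in each direction was not computed, so these counts are no trait of the set. The authors' deposited intervals of the posterior mean TPM did not overlap between the replicates for 4 genes, Rn7sk, Hexim1, Ccnt1 and Ccnt2, beside 38.6% of detected genes, a share close to that of the set.

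**Figure D3:**
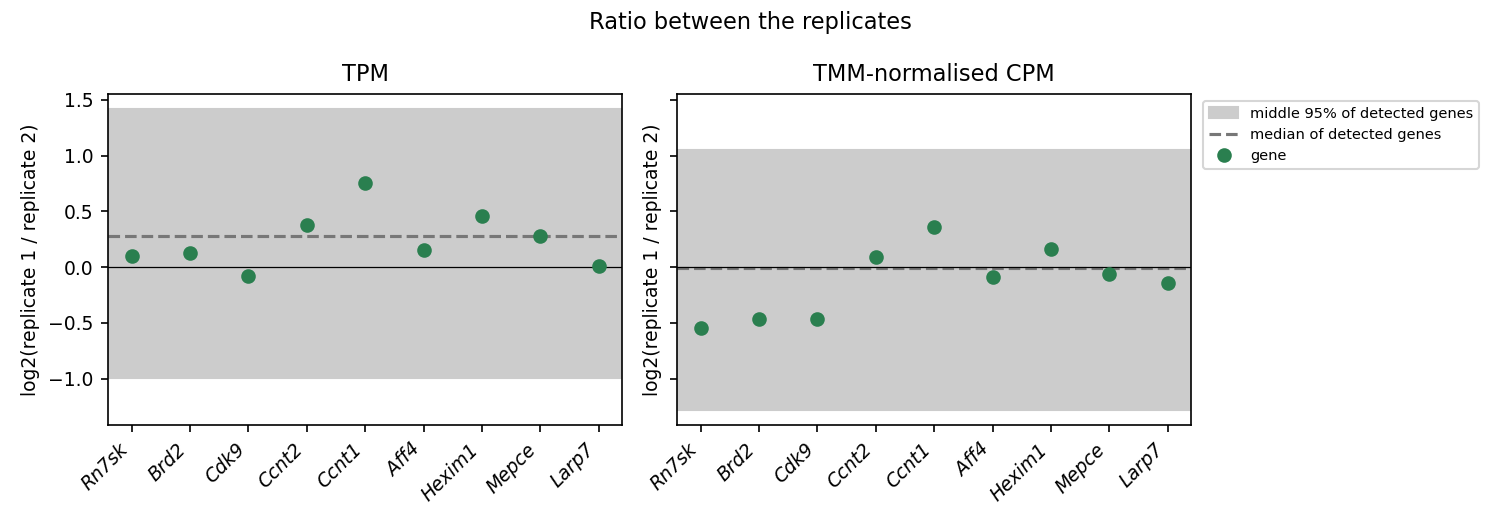
Log2 ratio of replicate 1 over replicate 2 of the 9 genes in TPM (left) and in TMM-normalised CPM (right), with the median of detected genes dashed and their middle 95% in grey. All points lie inside the grey band, and Rn7sk moves from 0.10 on the left to -0.55 on the right.

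The isoforms annotated for these genes differ in whether they encode the protein. GENCODE labels a transcript retained_intron when it keeps intron sequence, nonsense_mediated_decay when its reading frame ends early, and processed_transcript when it has no long reading frame. Of the 62 transcripts of the 8 genes, 41 carry such a label. Over all detected protein-coding genes, 33409 of 69105 transcripts are not labelled protein_coding. The 41 transcripts held 53.2% of the summed TPM of the 8 genes in replicate 1 and 56.4% in replicate 2 (mean 54.8 ± 2.3%, SD, n = 2). They held 37.2% and 41.1% of the counts of the 8 genes. Over all detected protein-coding genes the corresponding shares were 22.6% and 25.2% of TPM and 17.0% and 16.9% of counts. The median gene of the 8 stood closer to the background, with 27.3% and 28.5% of its TPM, against 20.1% and 22.4% for the median detected protein-coding gene. Shares over 50% were found in 3 of the 8 genes, Brd2, Ccnt2 and Ccnt1, beside 21.5% of detected protein-coding genes in replicate 1 and 20.1% in replicate 2. Transcripts of 1 gene share exons, so the division of reads among them is an estimate. In this nuclear RNA, reads of unspliced RNA were not told apart from those of retained_intron transcripts. Such transcripts held 36.8% of the summed TPM of the 8 genes in replicate 1 and 34.5% in replicate 2.

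Brd2, with 19 annotated transcripts, weighed most in that sum. Transcripts without the protein_coding label held 69.6% of its TPM in replicate 1 and 78.8% in replicate 2. The protein-coding Brd2-202, of 12 exons, had 43.9 and 13.8 TPM in replicates 1 and 2. Brd2-207, a nonsense_mediated_decay transcript of 14 exons, had 24.3 and 39.4 TPM and was the largest by counts in replicate 2, with 48.1% of the counts of the gene against 33.4% in replicate 1. Brd2-217, a retained_intron transcript of 654 bases, had 23.5 and 0 TPM. The gene as a whole differed by 0.12 in log2 TPM and by -0.46 in TMM-normalised CPM.

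The kallisto-layout tables gave the same directions for these 3 transcripts as shares of Brd2 TPM. Brd2-202 had 10.9% in replicate 1 and 7.21% in replicate 2, Brd2-207 had 6.85% and 17.5%, and Brd2-217 had 41.2% and 14.4%. The sizes were not alike, and Brd2-217 was the largest Brd2 transcript in replicate 1 there. The remaining named Brd2 transcripts, Brd2-201, Brd2-204, Brd2-205, Brd2-215 and Brd2-219, each held between 3.72% and 16.0% of its RSEM-layout TPM. Exons of Brd2 overlap those of H2-DMa, on the opposite strand, which had 194 and 346 expected counts, and of an antisense gene with 0 and 21.2. The strand setting of the counting is not given in the sources used here, so reads of such pairs cannot be told apart.

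**Figure D4:**
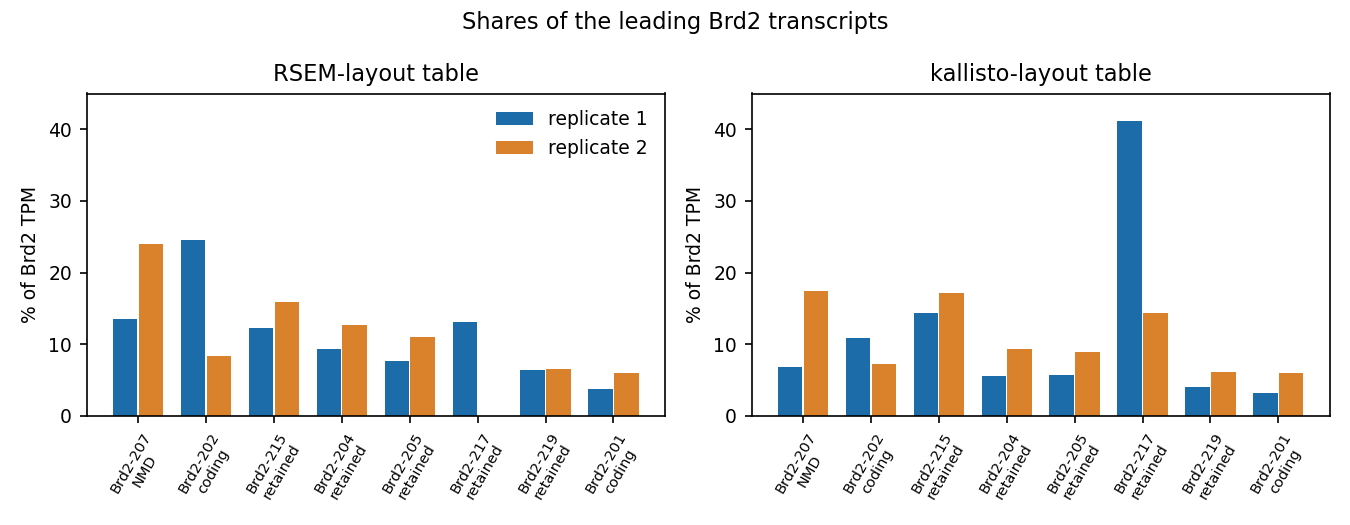
Shares of Brd2 TPM (%) held by the 8 Brd2 transcripts with at least 5% in either library of the RSEM-layout tables (left), and the same transcripts in the kallisto-layout tables (right), with a bar for each replicate. Brd2-202 is higher in replicate 1 and Brd2-207 in replicate 2 on both sides.

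In Ccnt2 the split was steadier. Transcripts without the protein_coding label held 75.2% of its TPM in replicate 1 and 70.7% in replicate 2, and 73.9% and 69.1% of its counts. Ccnt2-207, a processed_transcript of 7640 bases, held 47.6% and 46.2% of the counts, with 17.5 and 13.1 TPM. The protein-coding Ccnt2-202 had 16.6 and 15.1 TPM. The other protein-coding transcript, Ccnt2-201 of 6738 bases, had 0 counts in both libraries and both quantifications. Ccnt2-201 and Ccnt2-207 end at the same base, chr1:127808061, so the division of reads between them is uncertain. The retained_intron transcripts Ccnt2-204, Ccnt2-205 and Ccnt2-206, all of which begin at the 5′ end of the gene, together with a smaller one held 49.1% and 45.3% of TPM.

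In Ccnt1 the share depended on the measure. Transcripts without the protein_coding label held 55.6% and 51.7% of its TPM but 13.0% and 12.6% of its counts. The protein-coding Ccnt1-208, of 7397 bases, held 87.0% and 87.4% of the counts, with 15.2 and 9.78 TPM in replicates 1 and 2. Ccnt1-203, a processed_transcript of 683 bases, had 13.3 and 6.33 TPM from 122 and 68.4 counts. Ccnt1-203 accounted for 39.0% and 31.3% of the gene's TPM in the RSEM-layout tables, against 11.7% and 3.08% in the kallisto-layout tables. The retained_intron Ccnt1-202 had 5.67 and 3.60 TPM. Exons of Ccnt1 overlap the antisense gene 9330020H09Rik, which had 61.0 and 51.2 counts.

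Summed over protein_coding transcripts alone, a calculation chosen after seeing the data, the cyclins lay closer together. Ccnt1 had 15.2 and 9.78 TPM and Ccnt2 had 16.6 and 15.1 TPM on that measure, the latter all on Ccnt2-202. Their difference, Ccnt1 minus Ccnt2, was -0.12 in replicate 1 and -0.58 in replicate 2 on the log2(TPM + 1) scale (mean -0.35 ± 0.32, SD, n = 2). Cdk9 kept 45.7 and 47.2 TPM, above both cyclins. Brd2 had 54.5 and 34.8 TPM in replicates 1 and 2 on that measure, so that its values then lay on both sides of those of Cdk9. Hexim1 minus Cdk9 was -0.87 and -1.35.

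In Cdk9 the protein-coding Cdk9-201 held 49.3% of TPM in replicate 1 and 50.3% in replicate 2, and Cdk9-202 held 16.5% and 18.5%, against 2.24% and 3.07% in the kallisto-layout tables. The nonsense_mediated_decay transcript Cdk9-208 held 16.7% and 20.8%, and the short protein-coding Cdk9-209 held 6.02% and 1.26%. In Aff4 the protein-coding Aff4-201, of 10099 bases, held 73.6% and 74.4% of TPM, and the retained_intron Aff4-205 held 22.0% and 12.0%. In the kallisto-layout tables the share of Aff4-201 was 22.6% and 32.4%, the gene for which the 2 quantifications also had the lowest ratio of TPM.

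Reads of Larp7 and Mepce were mostly counted on their protein-coding isoforms. Larp7-201 held 90.4% of Larp7 TPM in replicate 1 and 72.8% in replicate 2, and the retained_intron transcripts Larp7-202, with 8.21 and 17.7 counts, and Larp7-204, with 0 and 3.72 counts, held the rest. Mepce-201 held 86.5% and 89.8% of Mepce TPM and over 98% of its counts. The short transcripts Mepce-202, Mepce-203 and Mepce-204 had 1.11 TPM or less in either library.

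**Figure D5:**
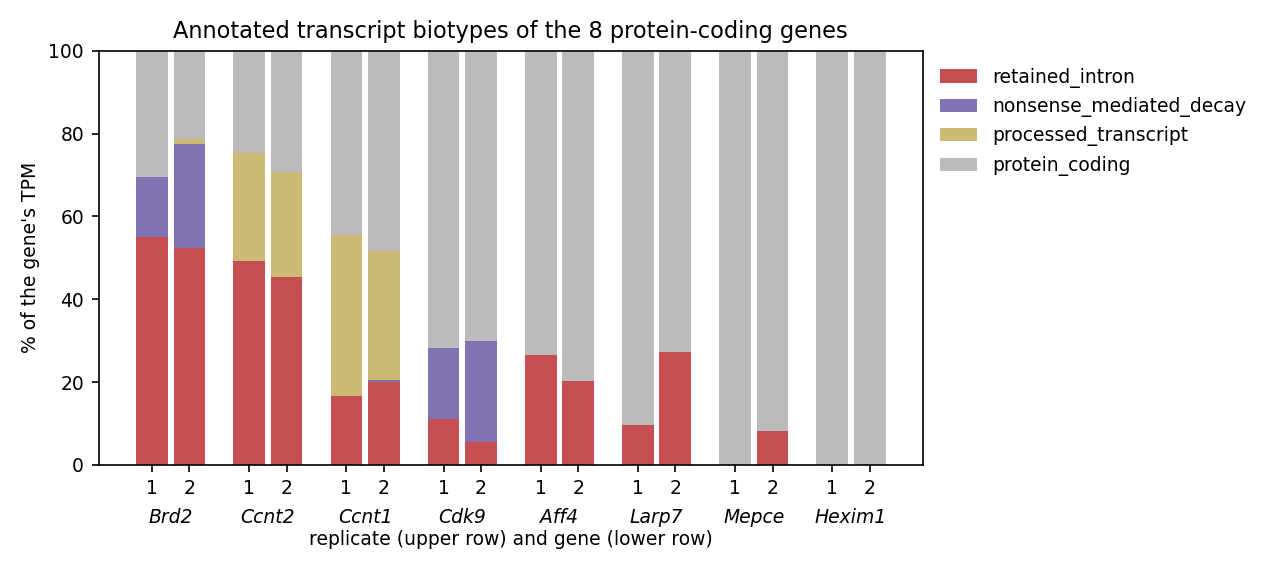
Share of each gene's TPM (%) by annotated transcript biotype in the RSEM-layout tables, with a bar for each of the 8 protein-coding genes and each replicate. Brd2, Ccnt2 and Ccnt1 have over 50% in transcripts without the protein_coding label, and Hexim1 has none.

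The neighbouring parts of the pathway were read from 7 lists with 54 genes. At least 1 TPM in both libraries was found for 51 of them, beside 44.9% of all protein-coding genes. Of these, 1 gene, Ell2, differed by more than 2-fold between the replicates, beside 11.2% of detected genes. The counts for each list below stand against the same backgrounds. Of 7 further genes whose proteins are known partners of 7SK, all 7 passed 1 TPM. The highest were Hnrnpa2b1, with 442 and 347 TPM, and Srsf2, with 193 and 128 TPM. Both encode RNA-binding proteins of splicing, and Hexim2 was the lowest. Their medians were 51.7 and 37.7 TPM in replicates 1 and 2, above those of the 8 protein-coding genes. Exons of near-identical pseudogenes can take reads of such hnRNP genes, so their values are uncertain.

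Of 10 genes for the transcription and maturation of 7SK by RNA polymerase III, all 10 passed 1 TPM, with medians of 11.1 and 9.68 TPM. Ssb, the La protein that binds new polymerase III transcripts, had 44.9 and 26.5 TPM, and Snapc3, a subunit of the snRNA activating complex, had 32.7 and 24.9 TPM. Snapc2 of the same complex was the lowest, at 2.75 and 2.18 TPM. Among 5 genes of the BET family and of P-TEFb release, all 5 passed 1 TPM. Ddx21, a helicase known in human cells to free P-TEFb from 7SK, had 14.8 and 10.9 TPM, and Brd3 had 7.20 and 5.71 TPM.

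In the super elongation complex 6 of 9 genes passed 1 TPM. Aff1, the scaffold related to Aff4, had 62.7 and 54.0 TPM in replicates 1 and 2, above Aff4 in both. Ell2, an elongation factor of the complex, had 56.9 and 26.6 TPM, which was the pair past 2-fold. Eaf2 was the lowest, at 0.07 and 0.11 TPM from 1 and 4 counts, and Aff3 and Ell3 were also under 10 counts.

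All 6 pausing factors passed 1 TPM, in a narrow range. Supt5, the DSIF subunit that P-TEFb phosphorylates, had 21.7 and 22.4 TPM, and Nelfb of the NELF complex had 13.1 and 10.3 TPM. Supt4a, the other DSIF subunit, was the lowest at 9.17 and 7.23 TPM. All 10 elongation factors passed as well, led by Paf1, of the complex named after it, with 51.2 and 34.9 TPM, and Supt16, a FACT subunit, with 29.1 and 20.1 TPM, while Wdr61 was the lowest with 7.12 and 6.72 TPM. Among 7 genes of the other kinases of the polymerase tail and the polymerase itself, all 7 passed. Cdk12 had 55.8 and 39.3 TPM, below Cdk9 in both libraries. Polr2a, the subunit that carries the tail, had 42.4 and 36.1 TPM, and Mnat1, which belongs to the kinase of Cdk7, had 3.83 and 4.46 TPM.

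The labelled cell type was checked with markers. All 8 macrophage markers passed 1 TPM, with a summed level of 3525 and 3061 TPM in replicates 1 and 2, led by Lyz2, Adgre1 and Csf1r. None of 6 lymphocyte markers did, with sums of 0.35 and 0.31 TPM and Cd3e and Cd3g at 0 counts, and all 5 neutrophil markers were at 0 counts in both. Of 5 stromal and endothelial markers only Pecam1 passed, at 2.02 and 1.48 TPM, with sums of 2.61 and 1.81 TPM and Dcn at 0 counts. The libraries held 20196408 and 19588980 expected counts by the RSEM-layout tables. Their kallisto-layout tables held 34774610 and 27988909 estimated counts. In bulk RNA, fewer nuclei and less RNA per nucleus cannot be told apart.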

How the data were processed

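Ribosomal-RNA-depleted nuclear RNA of lipid A-treated mouse macrophages was quantified in 2 libraries. Per the deposited file notes, the authors made expected counts and TPM per gene and transcript from transcriptome alignments to mm10 with GENCODE M21, and estimated counts and TPM per transcript from the reads. The deposited posterior mean TPM has interval bounds, treated here as a signal, per the file headers. Which programs and strand setting were used is not given in the sources used here, and tables are called by their column layout, that of RSEM or kallisto.

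The 9 genes, the pathway lists and the marker lists were chosen with earlier results of these data known. All 9 genes were named, with transcripts holding at least 5% of a gene's TPM in either library, and from each pathway list the 2 highest and the 1 lowest genes by mean TPM. 1 gene under this rule is not reported here. Genes with at least 10 expected counts in both libraries were called detected. Expected counts, rounded to whole numbers, were scaled with TMM in edgeR 4.0.16 and with DESeq2 1.42.0 size factors (R 4.3.3), both tested on simulated data. No p-value was computed. A pseudocount of 1 on the log2(TPM + 1) scale understates differences of low genes. Copies of 7SK were found with blastn 2.17.0 in the GENCODE M21 transcripts (GRCm38), and all sequences come from them. Python 3.11.15, pandas 2.3.3, numpy 2.4.6 and scipy 1.17.1 were used. Alternatives tried were the kallisto-layout table, the posterior mean TPM, the annotated length, a pseudocount of 0.1, filters of 0 or 100 counts, other scalings and leaving out each library.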

Additional observations from a re-analysis of the deposited data

How the results depend on the processing

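No paired analysis was possible because the series holds 1 group. The mean Rn7sk TPM of 214020 was 57105 in the kallisto-layout table and 170087 with the annotated length, and 206396 to 221645 when a library was left out. Its log2 ratio of RSEM-layout over kallisto-layout TPM, 2.18, was 0.42 on shares of counts and 0.75 relative to protein-coding TPM, and 1.31 to 3.06 by library. Its log2 ratio of replicate 1 over replicate 2, 0.10, was 0.11 with the posterior mean TPM and 1.85 in the kallisto-layout table. It was negative with the annotated length (-0.24), TMM-normalised CPM (-0.55), DESeq2 size factors (-0.55) and kallisto-layout TPM relative to protein-coding genes (-0.40), the last chosen after seeing the data. The kallisto-layout table put 9 genes past 2-fold between replicates. The summed TPM of all protein-coding genes was itself 278296 in replicate 1 and 58578.5 in replicate 2 there. The share of all detected genes past 2-fold was not computed, so the count is no trait of the set. Once rescaled to that sum, 0 of the genes passed.

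The same ratio turned negative with TMM and DESeq2 for Larp7 (-0.15 and -0.14), Mepce (-0.064 and -0.060), Brd2 (-0.46 and -0.46) and Aff4 (-0.085 and -0.080). For Mepce it was also -0.035 in the rescaled kallisto-layout table, and for Cdk9 it turned to 1.86 in the kallisto-layout table. The median difference of the 8 protein-coding genes from detected ones, 1.49, was 1.65 in the kallisto-layout table, 4.16 without a filter and 0.88 with at least 100 counts, and 1.39 to 1.60 by library. Ccnt1 minus Ccnt2, -1.13, was -0.79 in the kallisto-layout table and -1.31 to -0.95 by library. Over protein_coding transcripts alone it was -0.35, and -0.25 in the kallisto-layout table. Hexim1 minus Cdk9, -1.60, ran from -1.86 to -1.34 by library and was -1.11 over protein_coding transcripts alone and -0.88 on the same in the kallisto-layout table. These transcript sums were chosen after seeing the data. The share of TPM in transcripts without the protein_coding label, 54.8%, was 64.7% in the kallisto-layout table and 39.1% of counts, a measure added after seeing the data, and 53.2% to 56.4% by library. The causes of these shifts were not tested. Larp7, with 133 counts in each library, has the widest counting error of the 9 genes relative to its count.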
